A study of Homo sapiens with 2 samples.

Results

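The genes examined here are 9 apolipoproteins, APOA1, APOA2, APOA4, APOB, APOC1, APOC3, APOE, APOH and APOM, together with MTTP, the microsomal triglyceride transfer protein that builds lipoprotein particles. They were taken by gene symbol, which found 10 of the 58735 genes in the deposited count table, and 9 of them had at least 10 counts in 1 library. APOA4 did not. RNA of PLC8024 cells was sequenced as 1 library of MAEL WT cells, which were untreated and of wildtype genotype, and 1 library of MAEL KO cells. The line, also called PLC/PRF/5 or Alexander cells, is an epithelial line from a human liver cancer, and the sample columns of the tables carry its short name PLC5. In the KO cells MAEL was disrupted with Cas9 and an sgRNA. The edited cells were sorted by mCherry and seeded to grow single clones, so a difference between the libraries cannot be told apart from a difference between clones.

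Apolipoproteins coat the particles that carry triglyceride and cholesterol through blood. Hepatocytes assemble very low density lipoprotein around a single molecule of APOB, which MTTP loads with lipid in the endoplasmic reticulum, and they release APOA1 and APOA2 as the main proteins of high density lipoprotein (HDL). The small apolipoproteins move between particles, where they control lipases and uptake by receptors, and liver and intestine are the main sources of most of them.

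All 9 of the genes with enough counts were higher in MAEL KO than in MAEL WT, where 8593 of all 17887 genes compared were higher. APOA1 differed by 12.1 fold and MTTP by 5.70 fold, APOC3 by 3.97 and APOH by 3.71 fold, APOA2, APOB, APOC1 and APOM by 1.78 to 2.25 fold, and APOE by 1.33 fold. Their median log2 fold change was 1.17, whereas that of all 17887 genes with at least 10 counts in 1 library was -0.04. With 1 library per condition, no difference given here has a replicate check, and the 95% intervals cover counting error only.

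The libraries held 19904136 counts in MAEL WT and 20833332 in MAEL KO, and mitochondrial genes took 4.42% and 4.95% of them. MAEL had 1 count and 0 counts, so the labels could not be checked by the targeted gene. Counts were scaled between the libraries by TMM (trimmed mean of M values), and with scaling by total counts the median of all genes moved from -0.04 to -0.31 on the log2 scale. Some hepatocyte genes were high in both libraries, as AMBP had 52191 and 52760 counts and TF 65436 and 72635. Of 15 hepatocyte markers with at least 10 counts, 5 were higher in MAEL KO past a log2 fold change of 2, ALB and AFP among them.

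Promoter sequences are printed for 4 of the genes to show the starts at which the searched motifs were found or not. RefSeq promoter windows on GRCh38.p14, from 250 bases before a start to 50 after it, matched 7 of the 10 genes with 10 windows. APOA1, APOB and APOC3 had no match. The stretches below lie before a start and outside annotated exons. They belong to the HDL protein with high counts in both libraries, to the second start of MTTP, to APOH and to APOE, whose difference was smallest. Those of MTTP and APOH lie inside the annotated span of their own gene, before a start within it. Capitals mark a match to a searched motif.
APOA2, chr1:161223632-161223878, minus strand: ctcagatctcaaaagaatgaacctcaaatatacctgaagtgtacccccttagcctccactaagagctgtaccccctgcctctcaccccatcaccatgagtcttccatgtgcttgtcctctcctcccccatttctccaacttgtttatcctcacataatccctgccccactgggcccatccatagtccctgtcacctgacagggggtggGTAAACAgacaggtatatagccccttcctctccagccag
MTTP, chr4:99574574-99574706, plus strand: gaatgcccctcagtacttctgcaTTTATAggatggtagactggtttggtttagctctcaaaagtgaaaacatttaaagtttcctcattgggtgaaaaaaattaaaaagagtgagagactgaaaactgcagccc
APOH, chr17:66229423-66229665, minus strand: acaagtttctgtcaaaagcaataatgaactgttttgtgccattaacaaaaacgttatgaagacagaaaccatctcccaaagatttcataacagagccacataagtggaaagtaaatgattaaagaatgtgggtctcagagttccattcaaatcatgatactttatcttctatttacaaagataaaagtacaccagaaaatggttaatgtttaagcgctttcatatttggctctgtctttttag
APOE, chr19:44905546-44905753, plus strand: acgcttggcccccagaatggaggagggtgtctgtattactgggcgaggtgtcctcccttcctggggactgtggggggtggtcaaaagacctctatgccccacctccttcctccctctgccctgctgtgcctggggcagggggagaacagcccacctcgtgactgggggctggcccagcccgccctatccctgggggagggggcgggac

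GC content of these stretches ran from 32.5% for APOH and 38.3% for MTTP to 52.2% for APOA2 and 67.3% for APOE. The capitals in APOA2 are GTAAACA, at positions -42 to -36 where -1 is the last base before the start, which is the reverse strand of the FOXA motif TGTTTAC. Those in MTTP are TTTATA, the reverse strand of TATAAA, at positions -227 to -222. The motifs given here were searched on both strands, with the share of all 35116 windows that hold each. The FOXA motif was in 3.42% of windows and in 1 of the 10 windows here. TATAAA was in 11.5%. The nuclear receptor hexamer AGGTCA was in 13.8% and, as TGACCT, in the second MTTP window at positions -50 to -45, within an exon and so not printed. A loose HNF4 motif, CAAAGNNCA, was in 5.28% and matched the APOM window as CAAAGACCA, at positions -214 to -206. All 250 bases before that APOM start lie within an annotated exon of APOM, so they are not printed. The strict form CAAAGTCCA, which is also a form of the loose motif, was in 0.384% and in 0 windows of these genes. TTNNGCAA for CEBP (10.5%) and the sterol element TCACNCCAC (1.13%) also had 0 matches. A match is a run of letters and does not show that a factor binds there.

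Among the proteins of HDL, APOA1, its main structural protein and the activator of LCAT, differed most. It had 419 counts in MAEL WT and 4400 in MAEL KO, which gave a log2 fold change of 3.60 with a 95% interval from 3.46 to 3.75, and it ranked 55 of the 17887 genes from the highest. Its gene lies on chromosome 11 from 116835751 to 116837950, minus strand, of GRCh38, with 5 annotated transcripts of up to 4 exons. APOA2, the second HDL protein, had 7309 and 14234 counts and a log2 fold change of 1.17 (1.13 to 1.21), and it lies on chromosome 1 from 161222292 to 161223631, minus strand. APOM, which carries sphingosine-1-phosphate on HDL, had 2260 and 3480 counts, a log2 fold change of 0.83 (0.76 to 0.91). Its gene lies on chromosome 6 from 31652416 to 31658210, plus strand. The 3 HDL genes were therefore higher by unequal amounts, and none of their intervals overlapped.

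Of the pair that starts a particle, MTTP differed more than its client. MTTP had 101 counts in MAEL WT and 502 in MAEL KO, a log2 fold change of 2.51 (2.21 to 2.85). It lies on chromosome 4 from 99563761 to 99623999, plus strand, with up to 19 exons. APOB, the scaffold protein of very low and low density lipoprotein, had 80091 and 135805 counts, a log2 fold change of 0.97 (0.96 to 0.98). It spans chromosome 2 from 21001429 to 21044073, minus strand, and its listed length of 14828 bases is the longest of the 10. APOB was high in both libraries, whereas MTTP was the lowest of the 9 genes in both.

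Of the small apolipoproteins of triglyceride-rich particles, APOC3, APOC1 and APOE were higher in MAEL KO by 1.33 to 3.97 fold. APOC3, an inhibitor of lipoprotein lipase and of remnant uptake, had 196 and 675 counts, a log2 fold change of 1.99 (1.76 to 2.23), just under the threshold of 2. APOC1, an inhibitor of cholesteryl ester transfer, had 2692 and 4415 counts, a log2 fold change of 0.92 (0.85 to 0.99). APOE, the ligand by which liver cells take up remnant particles, had 77292 and 88588 counts, a log2 fold change of 0.41 (0.39 to 0.42). With scaling by total counts that of APOE was 0.13, the smallest of the 9. These genes lie on chromosome 11 from 116829706 to 116833072 (APOC3), on chromosome 19 from 44914247 to 44919349 (APOC1) and from 44905754 to 44909393 (APOE), each on the plus strand. APOA4, made mainly by the intestine, had 1 and 4 counts, a ratio of 4.63 with a counting interval from 0.458 to 228, so no difference was detectable at this depth. It lies on chromosome 11 from 116820700 to 116823306, minus strand.

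APOH, or beta-2-glycoprotein I, binds anionic phospholipids and is a plasma protein as much as a lipoprotein component. It had 419 and 1345 counts, a log2 fold change of 1.89 (1.73 to 2.05), and lies on chromosome 17 from 66212033 to 66256525, minus strand. Its MAEL WT count was that of APOA1, while its MAEL KO count was far below. In order of fold change the genes ran APOA1, MTTP, APOC3, APOH, APOA2, APOB, APOC1, APOM, APOE. The neighbouring intervals of MTTP and APOC3, APOC3 and APOH, APOB and APOC1, and APOC1 and APOM overlapped, and the others in this order did not.

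**Figure D1:**
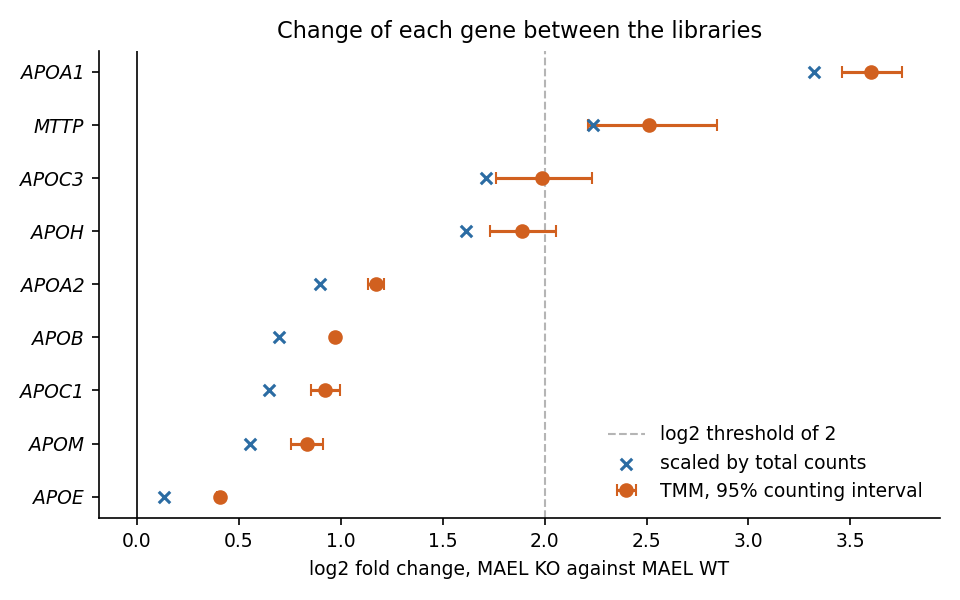
Log2 fold change (MAEL KO over MAEL WT) for each of the 9 genes with at least 10 counts in 1 library, as circles with bars for the 95% counting interval after TMM scaling and crosses for scaling by total counts. The dashed line is the log2 threshold of 2. APOA1 (3.60) and MTTP (2.51) lie past it, and all circles and crosses lie above 0.

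Past a log2 fold change of 2 were APOA1 and MTTP, 2 of the 9 genes, where 2.16% of all genes compared were higher by as much. None of the 9 was lower by a log2 fold change of 2, against 5.64% of all genes. Over all genes, 387 were thus higher and 1008 lower, and with scaling by total counts 269 and 1309. Past a log2 fold change of 1 were 5 of the 9, APOA1, MTTP, APOC3, APOH and APOA2, against 10.2% of all genes, and 0 of the 9 were lower past 1, against 16.5%. All 9 had at least 100 counts in 1 library, and among the 12023 genes with that many, 9.23% were higher past 1. Of the same 12023 genes, 1.54% were higher and 2.35% lower past 2. With scaling by total counts APOA2 left this set, at 0.90. All 9 had a counting interval above 0, which held for 34.8% of all genes. That share includes genes with far fewer counts, whose intervals are wider, so it is not matched to the 9 by count.

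**Figure D2:**
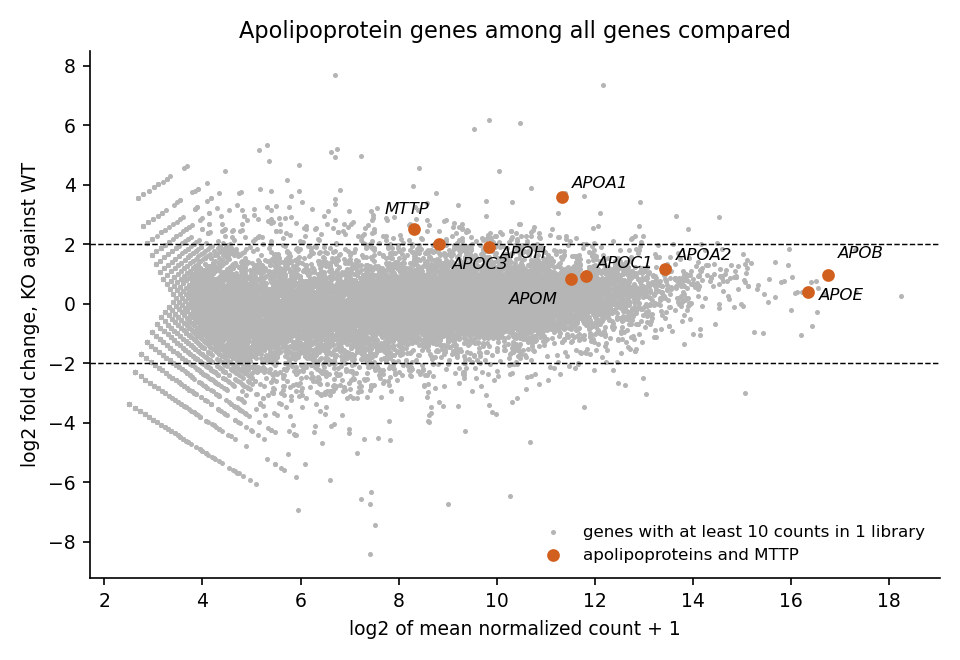
Each grey point is 1 of the 17887 genes compared, placed by the log2 of its mean normalized count plus 1 and by its log2 fold change (MAEL KO over MAEL WT), and dashed lines stand at 2 and -2. The 9 apolipoprotein and MTTP points are orange, all above 0, with APOB and APOE far to the right and MTTP leftmost.

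Levels were compared between genes with the deposited FPKM values, which divide the counts by the length listed for each gene. Where a gene has several annotated transcripts, that length need not be that of the transcript expressed. Levels between genes therefore depend on the listed lengths. APOE was at 1613 FPKM in MAEL WT and 2133 in MAEL KO, rank 10 and 12 among the protein-coding genes. APOA2 was at 354 and 794, APOB at 247 and 483, and APOC1 at 99.98 and 189. These 4 kept the same order in both libraries, with no overlap of neighbouring Poisson intervals. APOM stood at 62.2 and 111 FPKM, APOH at 14.4 and 53.3, and APOC3 at 10.3 and 41.1. APOA1 stood at 13.5 FPKM in MAEL WT, where its interval of 12.2 to 14.8 overlapped that of APOH, and at 163 in MAEL KO, above APOM and below APOC1. It moved from rank 3313 to rank 204 of protein-coding genes and from the seventh place among the 10 genes to the fifth, which was the sole change in their order besides the shifts this caused to APOM and APOH. MTTP stood at 0.855 and 4.91 FPKM, and APOA4 at 0.0310 and 0.143.

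**Figure D3:**
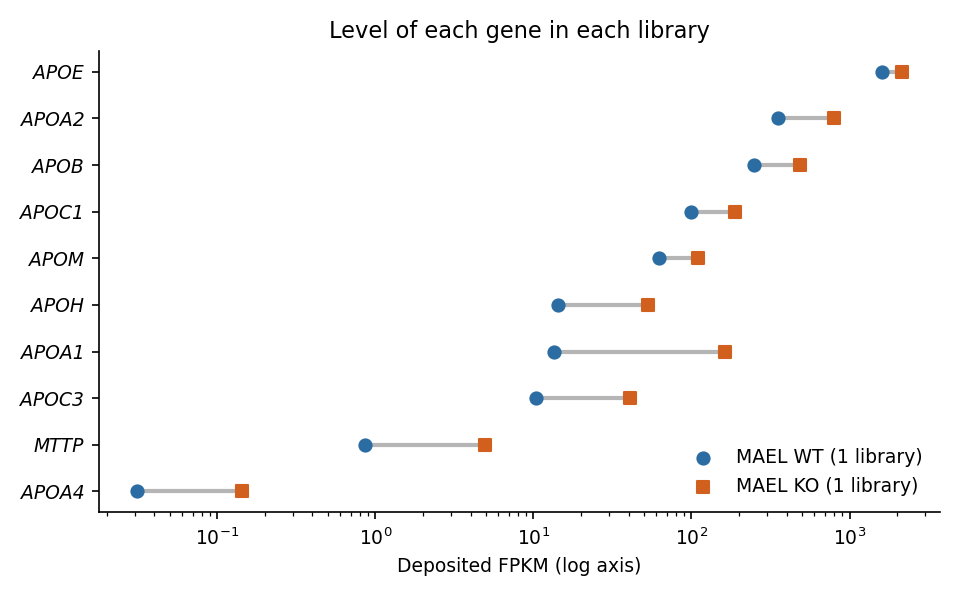
Deposited FPKM of the 10 genes on a log axis, with a blue circle for the MAEL WT library, an orange square for the MAEL KO library and a grey line joining them. The longest line among genes with at least 10 counts is that of APOA1, from 13.5 to 163 FPKM, and the shortest is that of APOE, from 1613 to 2133 FPKM.

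Together the 10 genes took 0.858% of all counts in MAEL WT (95% Clopper-Pearson interval 0.854% to 0.862%) and 1.22% in MAEL KO (1.21% to 1.22%). Most of this was APOB and APOE, with 0.791% and 1.08%. The other 8 genes took 0.0673% and 0.139%. Of the difference in the summed normalized counts, from 159195 to 273339, APOB made up 62.9%, APOE 20.6%, APOA2 7.48% and APOA1 3.82%. The genes with the largest fold changes thus made up little of it, as MTTP gave 0.392%. Per length the makeup was different, since APOE made up 66.8% of the summed FPKM of these genes in MAEL WT and 53.7% in MAEL KO, while APOB went from 10.2% to 12.2% and APOA1 from 0.557% to 4.10%.

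Ratios between genes within a library do not depend on the scaling between libraries. They do depend on the lengths listed for the genes, which cancel in the difference between the libraries. APOA1 stood to APOB, the main proteins of the HDL and APOB particle classes, at an FPKM ratio of 0.0545 in MAEL WT and 0.337 in MAEL KO, a log2 difference of 2.63 (2.49 to 2.78). For each unit of APOA1 there were 26.3 units of APOA2 in MAEL WT and 4.87 in MAEL KO. APOB per MTTP was 289 and 98.5, a log2 difference of -1.55 (-1.86 to -1.24), so the transcript of the loading protein was higher relative to that of its client in MAEL KO. APOC3 per APOA1, neighbours in 1 cluster, was 0.769 and 0.252. APOE per APOB was 6.53 and 4.41, and APOC1 per APOE, neighbours on chromosome 19, was 0.0620 and 0.0887, a log2 difference of 0.52 (0.45 to 0.59). These are ratios of transcripts, and no protein or particle was measured.

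APOA1, APOC3 and APOA4 lie in 1 gene cluster, and APOE and APOC1 in another. On chromosome 11, APOA1, APOC3, APOA4 and APOA5 lie within 48.6 kb, and APOA5, an activator of lipoprotein lipase, had 5 counts in each library. Within 200 kb of this cluster, 3 other genes had at least 10 counts, with log2 fold changes of 0.81 for BUD13 (297 and 450 counts), -0.18 for ZPR1 (2004 and 1527) and -0.01 for SIK3 (847 and 726). APOA1 and APOC3 were thus above all 3 of the neighbours compared. APOA1-AS, antisense to APOA1, had 0 and 2 counts, against 419 and 4400 for APOA1.

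On chromosome 19, APOE and APOC1 start 8.49 kb apart, with the pseudogene APOC1P1 (10 and 15 counts) beyond them. APOC1P1 is a near copy of APOC1, and reads that both share could have been split. APOC2, the cofactor of lipoprotein lipase in the same cluster, had 3 and 19 counts, a ratio of 7.33 with a counting interval from 2.16 to 38.7. The 18 other genes compared within 200 kb had a median log2 fold change of 0.05, from -1.63 to 2.50, the latter being APOC2. TOMM40, next to APOE, was at 0.78 (3844 and 5719 counts), a value between those of APOE and APOC1, and BCL3 was at -0.72. CLPTM1 was at 0.17 and NECTIN2 at 0.03. AC011481.3 overlaps 722 bases of APOC1 and had 20 and 23 counts.

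**Figure D4:**
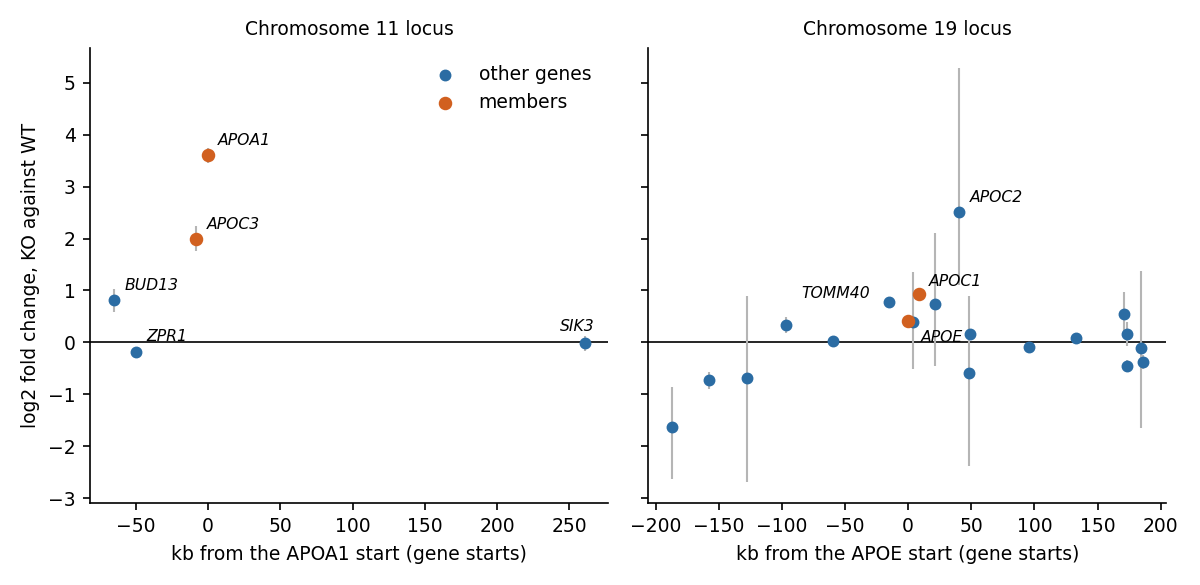
Log2 fold change (MAEL KO over MAEL WT) by distance of the gene start from that of APOA1 (left) and APOE (right), in kb, for genes with at least 10 counts in 1 library within 200 kb of each cluster, with grey bars for the 95% counting interval. APOA1 and APOC3, in orange, lie above the other genes of the left panel, while APOE and APOC1 lie among those of the right panel, where APOC2 rests on 3 and 19 counts.

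Other genes overlap the remaining members. BAG6 overlaps 290 bases of APOM, and it had 7548 and 8567 counts with a log2 fold change of 0.39, below that of APOM. TRMT10A overlaps 272 bases of MTTP and had 176 and 170 counts. AC083902.1, antisense to MTTP, had 0 and 5 counts, and AC010872.1, which overlaps APOB, had 7 and 20. Apart from BAG6 and TRMT10A these counts were small beside those of the members, and the strand setting of the counting is not given in the sources used here.

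The other genes listed by apolipoprotein or related names did not move in 1 direction. Of 11 with at least 10 counts, 1 was higher past a log2 fold change of 2, which was APOC2, and 1 was lower, with a median of -0.15. APOC2 reached 10 counts in MAEL KO alone. Among the 11 are the pseudogene APOC1P1 and also APOBR and APOLD1, so not all are apolipoproteins. The lower one was APOL1, a trypanosome lytic factor, with 42 and 4 counts, named here after its value was seen. It reached 10 counts in MAEL WT alone. APOL6 was at -1.42 (287 and 92 counts), APOL2 at -1.25 (600 and 217) and CLU, or APOJ, at -0.80 (7121 and 3540). APOO, a mitochondrial protein, was at 0.12 and APOOL at -0.15.

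After TMM scaling, of 21 genes of particle assembly and secretion with at least 10 counts, 0 were higher and 0 were lower past a log2 fold change of 1. The shares of all genes were 10.2% and 16.5%, and the median of the list was -0.10. P4HB, the protein disulfide isomerase that forms a complex with MTTP, had 25816 and 22005 counts, a log2 fold change of -0.02 where MTTP was at 2.51. TM6SF2, which aids lipid loading, had 58 and 52 counts (0.05). At the upper end were SEC23A, a coat protein of export vesicles (0.59), SAR1A (0.50) and ERLIN2 (0.44). At the lower end were TMEM41B (-0.84), SEC24D (-0.85) and the chaperone HSPA5 (-0.99, 63389 and 27544 counts). With scaling by total counts TMEM41B (-1.11), SEC24D (-1.13) and HSPA5 (-1.27) were lower past a log2 fold change of 1. The 4 genes of APOB mRNA editing with at least 10 counts had a median of 0.64. APOBEC1, the editing enzyme, had 0 counts in both, and its cofactor A1CF had 2021 and 2421, a log2 fold change of 0.47. SYNCRIP was at 1.38, KHSRP at 0.82 and RBM47 at 0.00.

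Among 21 genes of lipid supply with at least 10 counts, 3 were higher past a log2 fold change of 2 and 0 were lower. The shares of all genes were 2.16% and 5.64%, and the median of the list was 0.38. FABP1, the liver fatty acid binding protein, had 44 and 2596 counts, a log2 fold change of 6.06. AADAC, which mobilises stored triglyceride, had 5 and 72 counts (3.80), and SOAT2, which makes cholesteryl ester, had 2 and 10, a ratio of 5.78 (1.23 to 54.3), and with scaling by total counts 2 genes of the list were higher past 2. AADAC and SOAT2 reached 10 counts in MAEL KO alone, and they were named after their values were seen. AGPAT2 was at 1.06 and FASN at 0.93, while ACSL1 was at -1.37, LPIN1 at -0.93 and PCYT1A at -0.49.

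Receptors and plasma enzymes, which act on particles once they are released, were mixed. Of 16 receptor and clearance genes, 1 was higher past a log2 fold change of 2 and 2 were lower, with a median of -0.01. LRP2, or megalin, had 406 and 4638 counts (3.72), and ASGR1 (1.09) and SCARB1, the HDL receptor (1.03), followed. HSPG2 was at -2.57, VLDLR at -2.14 and LRP1 at -1.01. Of 15 lipase and remodelling genes, 1 was higher and 1 lower past 2, with a median of 0.54. The higher one was LIPC, hepatic lipase, at 2.26 (368 and 1528 counts) and at 1.99 with scaling by total counts, followed by PCSK6 (0.97) and ANGPTL4 (0.82). The lower one was PLTP, the phospholipid transfer protein, at -2.33 (156 and 26), and ANGPTL8 was at -0.88 and BMP1 at -0.58. LCAT, which APOA1 activates, had 125 and 174 counts, a log2 fold change of 0.68, against 3.60 for APOA1.

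Genes of lipid efflux had a median log2 fold change of -1.02 over 6. ABCA1, which hands cholesterol to APOA1, had 667 and 1508 counts (1.39). NPC2 was at 0.49, NPC1 at -0.87 and ABCA7 at -1.17. There were 2 genes lower past 2, and both were named after their values were seen. ABCG4 had 91 and 7 counts (-3.33), and ABCG1, which passes cholesterol to HDL, had 32 and 0 counts, at least 9.22-fold lower when 3 counts are taken as the floor.

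Of 33 transcription factors of liver and lipid genes, 2 were higher past a log2 fold change of 2 and 1 was lower. The shares of all genes were 2.16% and 5.64%, and the median of the list was 0.22. Past a log2 fold change of 1 were 9 higher and 1 lower, where the shares of all genes were 10.2% and 16.5%. NR1H4, the bile acid receptor FXR, had 9 and 270 counts (4.96), and NR2F1, named after its value was seen, had 2 and 11, a ratio of 6.36 (1.39 to 59.1). Both reached 10 counts in MAEL KO alone. CREB3L3, known to raise apolipoprotein genes, was at 1.78 (207 and 618 counts), PROX1 at 1.64 and NR2F2 at 1.48. HNF4A, a regulator of APOA1, APOB, APOC3 and MTTP in liver, had 2816 and 5391 counts (1.15). PPARGC1A had 6 and 12 counts. CEBPB was lower at -2.23 (9375 and 1723), and NR1H2 was at -0.77 and PPARD at -0.76. The part of any of these factors in the values of the apolipoproteins was not tested.

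**Figure D5:**
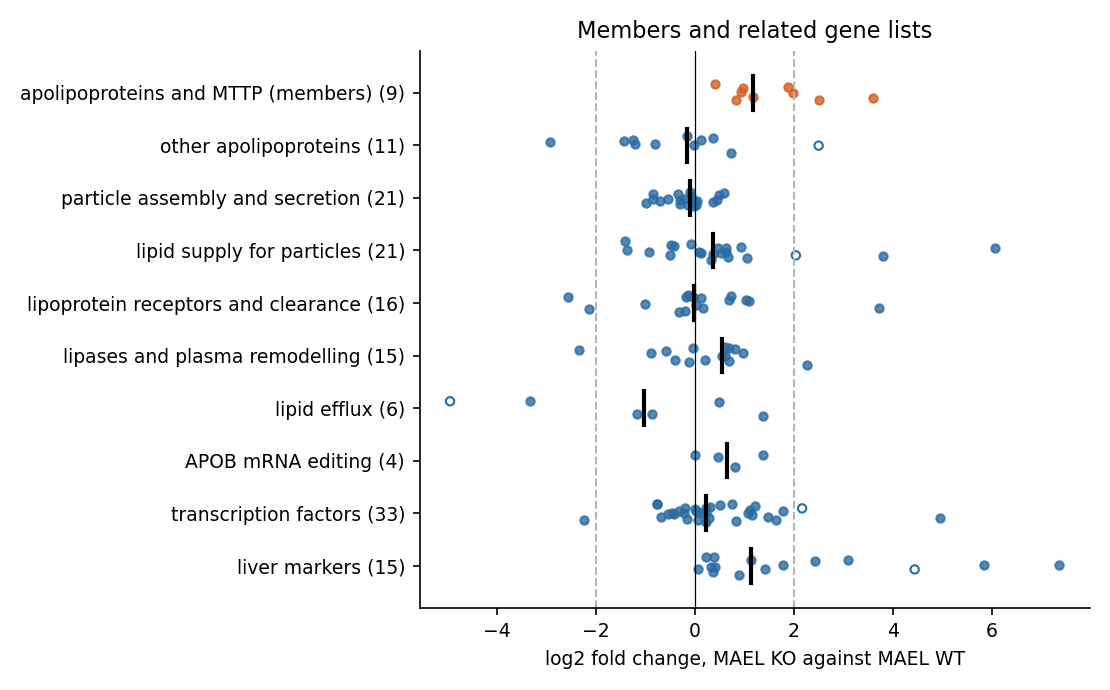
Log2 fold change (MAEL KO over MAEL WT) for each gene with at least 10 counts in 1 library, by list, with the number of genes beside the name and black bars for list medians. Open symbols are genes with at most 3 counts in a library, and dashed lines stand at 2 and -2. The 9 apolipoprotein and MTTP genes lie to the right of 0, with a median of 1.17, as do most liver markers, with a median of 1.14.

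Among 15 other markers of hepatocytes with at least 10 counts, 5 were higher past a log2 fold change of 2 and 8 past 1, 0 were lower past 1, and the median was 1.14. Albumin (ALB) had 59 and 8550 counts (7.36), alpha-fetoprotein (AFP) 26 and 1351 (5.85), and AHSG 559 and 2590 (2.42). TAT was at 0.06 and CYP3A4 had 0 and 2 counts. The liver list summed to 360813 and 602498 counts, or 16473 and 31825 CPM when the library totals are scaled by TMM, as for every CPM value here. In such bulk RNA, more cells that express a gene and more RNA per cell cannot be told apart.

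Markers of other tissues were given beside these values because intestine also makes APOA1, APOA4, APOB and MTTP. Of 6 intestinal markers with at least 10 counts, 0 were higher and 2 lower past 2, and 4 did not pass 1 in either direction. The median of the 6 was 0.49. CDX2 had 191 and 286 counts (0.79) and CDH17 756 and 120 (-2.44), while FABP2, SI, CDX1 and TFF3 had at most 2 counts in either library, and the list summed to 2919 and 3268 counts (133 and 173 CPM). Of 3 mesenchymal markers 1 was lower past 2, and the list summed to 280 and 177 counts (12.8 and 9.35 CPM). The immune list summed to 1304 and 752 counts (59.5 and 39.7 CPM), nearly all from LYZ, while CD3D, CD3E and MS4A1 had 0 counts. Of 2 endothelial markers 0 passed 2, and the list summed to 354 and 408 counts (16.2 and 21.6 CPM), nearly all from PECAM1. The part of these markers in the differences of the apolipoproteins was not tested.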

How the data were processed

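PLC8024 cells with and without MAEL gave 1 HiSeq RNA library each. The submitters' processing notes name HISAT2 (version 2.0.5), featureCounts (version 1.5.0-p3) and the hg19 build, whereas the gene coordinates in both deposited tables are those of GRCh38 and match GENCODE 29 for all 10 genes. The authors deposited read counts per gene, whole numbers without normalization, and FPKM values. The FPKM values are the counts over the length listed for each gene and over a library size that the authors rescaled. That size was 1.10 times the summed counts for MAEL WT and 0.910 times for MAEL KO. Whether counting used strand is not given in the sources used here.

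Counts were scaled by TMM factors (edgeR 4.0.16 in R 4.3.3) to the mean effective library size, and the log2 fold change was taken after adding 1 to each scaled count, where 1 library held 10 counts or more. Intervals are 95% Clopper-Pearson intervals of the MAEL KO share of a gene's counts, or exact Poisson intervals of a level. Neither covers more than counting error, and no molecular identifiers are named in the sources used here. The log2 threshold of 2 comes from the methods of the study. No p-value is given, since there were no replicates. Python 3.11.15, NumPy 2.4.6, SciPy 1.17.1, pandas 2.3.3 and matplotlib 3.10.9 were used, with DESeq2 1.42.0 for other size factors. The calculation of fold changes was run on simulated counts with Poisson error alone and large changes planted in well-counted genes. That run did not cover differences between libraries or clones. Members, gene lists and motifs were chosen with earlier results of these data known. Genes named are all members, up to 3 at each end of every list and of both loci among genes with at least 100 counts in 1 library, and a fixed set of lipoprotein regulators. A few such genes, and 1 motif searched, are not reported here. Others are marked in the text as chosen after their values were seen.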

Additional observations from a re-analysis of the deposited data

How the results depend on the processing

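With 1 library per condition, no library could be left out. No paired analysis was possible because each condition had 1 library. Scaling by total counts moved 8 of the 9 log2 fold changes beyond their counting intervals, the exception being MTTP, and lowered the median of the 9 genes from 1.17 to 0.90, while the median of all genes moved from -0.04 to -0.31. The number of the 9 genes past a log2 fold change of 1 was then 4 in place of 5. Without a count filter, which adds APOA4, the median was 1.32. The 8 alternatives were DESeq2 size factors, total counts, deposited FPKM, 0.1 or 5 added, no count filter, at least 100 counts, and protein-coding genes alone. Of 72 log2 fold changes of the 9 genes under them, 64 stayed within their counting interval and 0 changed sign. All 8 that moved did so with total counts. The count filters and the choice of protein-coding genes only select genes, so under them no fold change could move. DESeq2 size factors and FPKM scale the libraries nearly as TMM does. The number of the 9 genes past a log2 fold change of 2 was 2 under all 8 alternatives, and 5 at a log2 threshold of 1. Chosen after seeing the data, leaving out APOA1 and MTTP gave a median of 0.97, and leaving out mitochondrial genes gave shares of all counts of 0.898% in MAEL WT and 1.28% in MAEL KO. Of the related lists, with total counts lipid supply had 2 genes higher past 2, lipases 0, transcription factors 1, and mesenchymal markers 2 lower. Over all genes, where 387 were higher and 1008 lower past 2, the numbers were 250 and 513 with 5 added in place of 1, 1029 and 1773 without a count filter, and 185 and 283 among genes with at least 100 counts. Depth limits APOA4, APOA5 and APOC2, with at most 19 counts in a library.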
